A study of Mus musculus with 53 samples.

Results

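The Klf2, Klf4 and Klf5 loci were read across 35 CUT&RUN peak lists of mouse embryonic stem cells and endoderm cultures. Each locus was the gene body in the GENCODE M21 annotation of mm10 (GRCm38) with 80 kb added on each side, and its members were the peaks of each list that overlapped it, which came to 1201 of 1997019 peaks. CUT&RUN releases and sequences the DNA around an antibody-bound protein or histone mark. The cells were SGGC clones B9 and B12 of the E14JU line, in which GFP is fused to SOX2 and mCherry to GATA6, so that all groups carried both reporters. SOX2 is a pluripotency factor and GATA6 directs primitive endoderm, the extra-embryonic tissue that forms beside the epiblast. The clones were grown in 2iLIF or NACL, both media for naive pluripotency, or as nEnd, an endoderm culture derived from naive cells, or in KOSR medium, from which cells positive for SOX2-GFP alone (SOX2+) and double positive cells (DP) were sorted. SOX2 was profiled in 2 libraries of 2iLIF, 2 of NACL, 3 of SOX2+ and 3 of DP cells, and GATA6 in 3 of DP cells and 2 of nEnd. H3K27ac, a mark of active enhancers and promoters, and H3K4me1, a mark of enhancers, were each profiled in 2 libraries of 2iLIF, NACL, SOX2+ and nEnd and 1 of DP cells. The 7 SOX2 libraries of 2iLIF, NACL and SOX2+ cells are called pluripotent below, and 2iLIF and NACL together are called naive. Libraries of 2iLIF and NACL came from clone B9 and clone B12, all libraries of sorted cells came from B12 and are named by experiment (A, A1 and B), and both H3K4me1 libraries of nEnd came from B9. A further H3K27ac and a further H3K4me1 library had labels that name different sorted populations and entered no comparison.

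KLF2, KLF4 and KLF5 are zinc-finger transcription factors that bind GC-rich and CACCC elements and act together with OCT4, SOX2, NANOG and ESRRB in the naive pluripotency network. KLF4 is one of the factors used to reprogram somatic cells, and its gene responds to LIF signalling through STAT3. KLF2 responds to MEK inhibition and helps to hold the ground state, and KLF5 restrains primitive endoderm formation in the early blastocyst. All 3 genes are flanked by distal elements that pluripotency factors bind in embryonic stem cells.

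Peak numbers differed widely between libraries and bear on every value below. SOX2 lists held 8203 to 29623 peaks in pluripotent libraries and 1378 to 5320 in DP libraries, and GATA6 lists 1391 to 8316 in DP and 24223 to 32510 in nEnd. H3K27ac lists held 210904 to 401853 peaks in naive libraries, 20072 and 21394 in nEnd, 13514 and 14722 in SOX2+ cells and 76260 in DP cells, and H3K4me1 lists 18627 to 130749. The highest signal of a peak is on each library's own scale, so a peak's strength is given as its percentile among all peaks of its own library, 100 being the strongest. Whether the samples of a group came from separate cultures is not stated beyond clone and experiment, so p-values measure the spread between these libraries. In sorted and cultured populations alike, fewer cells with a bound site and less binding per cell cannot be told apart.

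SOX2 and GATA6 peaks were merged into regions, and a region with peaks of at least 2 of the 15 libraries was kept, which gave 43516 regions in the genome, 9 at Klf2, 14 at Klf4 and 15 at Klf5. Regions are named by the distance from the gene's start site to the median position of their highest signal. Across the 3 loci, 12 regions held SOX2 in at least 5 of the 7 pluripotent libraries and 22 held GATA6 in both nEnd libraries. The loci differed in how these sets met in DP cells. At Klf2 the leading SOX2 regions were kept in all DP libraries without GATA6, at Klf4 a SOX2 region had GATA6 in all 3 DP libraries, and at Klf5 a GATA6 region carried SOX2 peaks in DP cells at a place with no SOX2 peak in any pluripotent library.

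**Figure D1:**
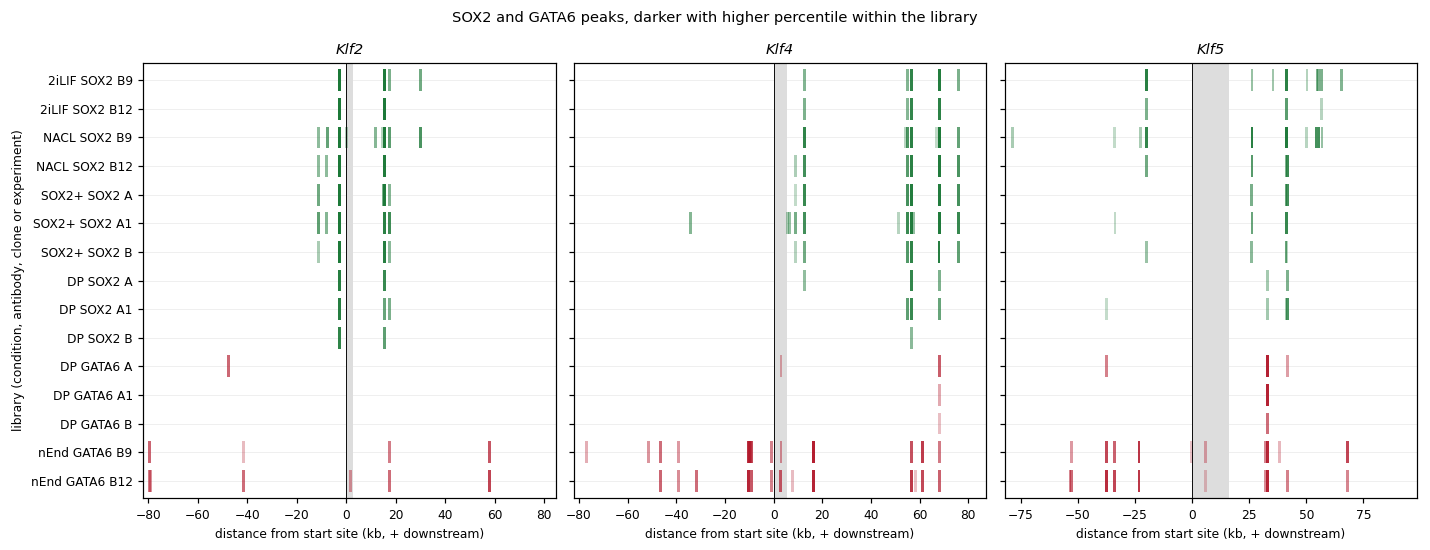
SOX2 (green) and GATA6 (red) peaks of the 15 libraries by distance from the start site of each gene in kb, with downstream to the right and the gene body in grey. Bars are peaks, darker with a higher percentile within the library, and the narrowest are drawn wider than they are. At Klf2 the columns at 2.8 kb upstream and 15.4 kb downstream run through all 10 SOX2 libraries, and at Klf4 the column 68.0 kb downstream runs through both antibodies.

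Klf2 (ENSMUSG00000055148, chr8:72319033-72321656, plus strand) had its strongest SOX2 peak 2.8 kb upstream of the start site in all 10 SOX2 libraries. This intergenic region (chr8:72315975-72316828) and a second one 15.4 kb downstream (chr8:72333881-72334748) were bound in all 7 pluripotent and all 3 DP libraries, which 2.53% of the 43516 regions were. Neither held a GATA6 peak in any DP or nEnd library. The first of these was the stronger of the 2 and is shown with the region 57.9 kb downstream, the strongest of 4 Klf2 regions that each held GATA6 in both nEnd libraries, each as a short window of the plus strand of GRCm38 around the median maximum (chr8:72316118-72316318 and chr8:72376870-72377070). Capitals mark matches on either strand to a SOX motif, which may be CATTGT and may also be CTTTGT, to a GATA motif, which may be AGATAA and may also be TGATAA, to the POU octamer ATGCAAAT, or to an OCT-SOX core spelled TTGTNATGC, whose first letters also end the SOX motif. The strings were chosen with the values known.
Klf2 2.8 kb upstream: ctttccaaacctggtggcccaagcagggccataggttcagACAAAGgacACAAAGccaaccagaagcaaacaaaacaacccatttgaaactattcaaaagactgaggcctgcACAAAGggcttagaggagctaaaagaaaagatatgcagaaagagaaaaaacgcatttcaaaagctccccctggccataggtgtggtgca
Klf2 57.9 kb downstream: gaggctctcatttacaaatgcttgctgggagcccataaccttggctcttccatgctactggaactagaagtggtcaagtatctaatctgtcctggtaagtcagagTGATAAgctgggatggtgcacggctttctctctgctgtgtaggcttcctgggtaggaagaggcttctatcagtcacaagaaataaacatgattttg
The upstream window held 3 SOX matches and no GATA match, and the nEnd window held 1 GATA match and no SOX match. The window 17.4 kb downstream, not printed and also among the 4 with GATA6 in nEnd, held 1 SOX and 1 GATA match. Over windows of the same length at all 43516 regions, 57.3% held a SOX match, 46.3% a GATA match, 4.02% the octamer and 3.24% the OCT-SOX core.

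Strength at the region 2.8 kb upstream separated the populations. The SOX2 peak stood at percentiles 99.9 and 99.5 in 2iLIF B9 and B12, 99.7 and 99.9 in NACL B9 and B12, and 99.5, 99.9 and 99.6 in SOX2+ experiments A, A1 and B. In DP cells it stood at 94.5, 93.6 and 88.7 in A, A1 and B, so that every DP library lay below every pluripotent one, as at 39.8% of the 1100 regions bound in all 10 libraries. Because percentiles among all peaks move with the number of peaks, the regions were also ranked among those 1100 alone, a measure chosen after seeing the data. By that rank it stood between 92.0 and 98.6 in the pluripotent and between 72.9 and 86.3 in the DP libraries, again without overlap, which held for 10.9% of the 1100 regions.

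The region 15.4 kb downstream was weaker and less regular. Its SOX2 peak stood at percentiles 98.7, 98.8, 99.0 and 97.4 in 2iLIF B9 and B12 and NACL B9 and B12, at 96.4, 91.8 and 93.6 in SOX2+ A, A1 and B, and at 83.4, 55.4 and 60.7 in DP A, A1 and B. Among the 1100 shared regions the DP libraries stood at 48.3, 13.2 and 54.7, so that A and B overlapped the pluripotent range of 26.2 to 91.5 and A1 lay below it. At 17.4 kb downstream (chr8:72336206-72336665) the picture differed from both: SOX2 was found in 5 of 7 pluripotent libraries and 1 of 3 DP libraries, and GATA6 in both nEnd libraries at percentiles 41.4 and 51.0. Of the 9591 regions with SOX2 in at least 5 pluripotent libraries, 12.3% held GATA6 in both nEnd libraries, and of the 12 such regions at the Klf loci 3 did, 1 at Klf2 and 2 at Klf4.

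Other Klf2 regions belonged to 1 factor. SOX2 without DP peaks was seen 11.2 kb upstream (chr8:72307475-72308066), in both NACL and all 3 SOX2+ libraries but neither 2iLIF library, at percentiles from 16.2 to 60.0. GATA6 without SOX2 was seen in both nEnd libraries 79.4 kb upstream (chr8:72239512-72239755), 0.37 kb from the start site of Ap1m1, a subunit gene of the AP-1 adaptor of vesicle transport, 41.6 kb upstream (chr8:72277216-72277736), and 57.9 kb downstream in an intron of Eps15l1, an endocytosis gene. Over the 4 Klf2 regions with GATA6 in both nEnd libraries, the peaks ranged from percentile 5.94, 41.6 kb upstream in B9, to 74.8, 57.9 kb downstream in B12. In DP cells the Klf2 window held a single GATA6 peak, in experiment A at 47.7 kb upstream and percentile 54.2, and none in A1 or B. No nEnd peak lay there.

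Klf4 (ENSMUSG00000003032, chr4:55527143-55532466, minus strand) held 4 of its 5 regions with SOX2 in at least 5 pluripotent libraries in a cluster 54.9 to 75.9 kb downstream of its start site, and the other 12.6 kb downstream. The region 68.0 kb downstream (chr4:55463932-55465023, in an intron of the annotated gene Gm12510) held SOX2 in all 7 pluripotent libraries and in DP A and A1, and GATA6 in all 3 DP and both nEnd libraries. It is 1 of 2 regions at the Klf loci with SOX2 and GATA6 each in at least 2 of 3 DP libraries, called co-bound here, as were 2.28% of the 43516 regions. The bases around its maximum (chr4:55464375-55464575) and those of the Klf4 region with the most SOX2 libraries, 56.8 kb downstream (chr4:55475593-55475793), read as follows on the plus strand of GRCm38, with capitals as above.
Klf4 68.0 kb downstream: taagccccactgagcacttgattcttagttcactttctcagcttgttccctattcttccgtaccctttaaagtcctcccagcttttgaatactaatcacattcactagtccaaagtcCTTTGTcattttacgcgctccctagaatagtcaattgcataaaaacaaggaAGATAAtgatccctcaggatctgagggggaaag
Klf4 56.8 kb downstream: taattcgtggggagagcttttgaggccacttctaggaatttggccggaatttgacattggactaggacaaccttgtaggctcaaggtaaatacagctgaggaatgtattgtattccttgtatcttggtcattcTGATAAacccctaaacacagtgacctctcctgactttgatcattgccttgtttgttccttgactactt
The co-bound window held 1 SOX match and 1 GATA match, and the window 56.8 kb downstream held 1 GATA match and no SOX match. A match to both motif kinds was not required for the label, and 64.0% of the 992 co-bound regions held a SOX match and 79.0% a GATA match.

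At the co-bound Klf4 region the SOX2 peak ranked high within the pluripotent lists and lower within the DP lists, which are shorter. It was the strongest SOX2 peak of the window in each pluripotent library, at percentiles 95.1, 90.3, 98.5 and 96.7 in 2iLIF B9 and B12 and NACL B9 and B12 and 95.9, 96.4 and 93.9 in SOX2+ A, A1 and B. In DP A and A1 it stood at 42.2 and 55.4, and DP B had no SOX2 peak there, so the region was not among the shared regions ranked above. The GATA6 peak stood at 60.0, 16.2 and 3.41 in DP A, A1 and B and at 43.7 and 57.6 in nEnd B9 and B12. In experiment A the SOX2 and GATA6 peaks of DP cells shared 195 bp with their maxima 103 bp apart, and in A1 they shared 419 bp with maxima 51 bp apart. In DP B the GATA6 peak was near the bottom of its list. After dropping the weaker 50% of peaks in every library, or after matching the libraries in peak number, 0 co-bound regions were left at the Klf loci, at Klf5 as at Klf4.

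The region 56.8 kb downstream (chr4:55475174-55476544, intergenic) kept SOX2 in every library. Its peak stood at percentiles 88.2, 86.1, 90.8 and 90.4 in 2iLIF B9 and B12 and NACL B9 and B12, at 95.5, 95.9 and 88.6 in SOX2+ A, A1 and B, and at 85.6, 83.2 and 34.2 in DP A, A1 and B, where it was the strongest SOX2 peak of the window. Among the 1100 shared regions DP (53.1, 44.3 and 28.1) and pluripotent libraries (28.4 to 48.5) overlapped, with means of 41.8 and 38.7. GATA6 was found there in both nEnd libraries, at 67.2 and 80.7, but in no DP library. Within Klf4, the leading SOX2 region in DP cells was therefore another one than in pluripotent cells, and it held no GATA6 peak in DP cells.

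The other SOX2 regions of Klf4 were thinner in DP cells. Those 54.9 kb (chr4:55477244-55477898) and 12.6 kb downstream (chr4:55519641-55520140) held SOX2 in all 7 pluripotent libraries, at percentiles from 37.2 to 82.4 and from 39.1 to 88.1, and in 1 DP library each. The region 75.9 kb downstream (chr4:55456530-55456777) held SOX2 in 6 pluripotent libraries and no DP library. Over the 3 loci, 5 of the 12 regions with SOX2 in at least 5 pluripotent libraries held it in at least 2 DP libraries, beside 28.4% of the 9591 such regions in the genome, and 4 held it in none, beside 56.5%.

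GATA6 in nEnd spread over both sides of Klf4. Of 10 regions with GATA6 in both nEnd libraries, 8 held no SOX2 peak in any library, and over the 3 loci 16 of 22 did, beside 80.7% of 19725 in the genome. The strongest GATA6 peak of the window in both nEnd libraries lay 16.4 kb downstream of the start site, at percentiles 96.7 and 94.0. Regions 0.7 kb and 10.5 kb upstream, named like that at 16.4 kb after their values were seen, held GATA6 at 38.9 and 39.5 and at 85.4 and 92.7. Only the intronic region 3.0 kb downstream (chr4:55529194-55529748) and the co-bound region shared GATA6 with DP cells, the first in experiment A alone at percentile 14.9. Over the 3 loci 2 of the 22 nEnd regions held GATA6 in at least 2 DP libraries, beside 11.2% in the genome.

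Klf5 (ENSMUSG00000005148, chr14:99298691-99315036, plus strand) had a GATA6 region as its most shared site in DP cells. The intergenic region 33.0 kb downstream (chr14:99331239-99332262) held GATA6 in all 3 DP and both nEnd libraries and SOX2 in DP A and A1, while none of the 7 pluripotent libraries had a SOX2 peak there. Of the 992 co-bound regions in the genome, 26.2% likewise held no SOX2 peak in any pluripotent library. Its bases (chr14:99331544-99331744) and those of the Klf5 region with the most SOX2 libraries, 41.6 kb downstream (chr14:99340181-99340381), are given as above.
Klf5 33.0 kb downstream: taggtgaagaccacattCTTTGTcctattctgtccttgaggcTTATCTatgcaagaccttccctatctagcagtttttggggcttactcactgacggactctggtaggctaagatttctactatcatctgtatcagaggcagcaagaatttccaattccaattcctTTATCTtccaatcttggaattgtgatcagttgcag
Klf5 41.6 kb downstream: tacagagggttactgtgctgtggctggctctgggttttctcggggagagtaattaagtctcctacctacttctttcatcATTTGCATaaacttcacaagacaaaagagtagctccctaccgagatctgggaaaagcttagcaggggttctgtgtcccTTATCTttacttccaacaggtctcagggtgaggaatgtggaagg
The co-bound window held 2 GATA matches and 1 SOX match, and the window 41.6 kb downstream held the octamer and 1 GATA match.

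At the region 33.0 kb downstream of Klf5, GATA6 was strong and SOX2 weak. The GATA6 peak stood at percentiles 95.3, 94.3 and 50.4 in DP A, A1 and B and at 91.3 and 93.1 in nEnd B9 and B12, and it was the strongest GATA6 peak of the window in all 5 libraries. The SOX2 peak of DP A and A1 stood at 18.9 and 20.2. The peaks of both factors shared 295 bp in experiment A, with maxima 88 bp apart, and 319 bp in A1, with maxima 68 bp apart. In each of these experiments the whole SOX2 peak lay within the GATA6 peak. DP B, whose SOX2 list is the shortest with 1378 peaks, had no SOX2 peak anywhere in the Klf5 window.

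The SOX2 region 41.6 kb downstream (chr14:99339396-99340725) was the reverse. SOX2 stood at percentiles 90.4, 62.4, 96.9 and 82.2 in 2iLIF B9 and B12 and NACL B9 and B12, at 76.9, 83.8 and 54.6 in SOX2+ A, A1 and B, and at 42.2 and 72.0 in DP A and A1. The highest signal lay 41.1 kb downstream in both 2iLIF libraries and SOX2+ B, and 41.6 kb downstream in DP A and A1. The SOX2+ B peak (chr14:99339602-99339918) touched neither DP peak. GATA6 was found in DP A at percentile 22.6 and in nEnd B12 at 39.5, and in neither of the other DP libraries. In DP A the peaks of both factors shared 146 bp. Pluripotent SOX2 was also found 20 kb upstream (chr14:99278340-99278951, 5 of 7 libraries, percentiles from 25.0 to 92.3) and 26.1 kb downstream (chr14:99324566-99325209, 6 of 7, from 26.6 to 92.3), and at neither place in DP cells.

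A pair of Klf5 regions upstream held GATA6 in both nEnd libraries beside weak SOX2 peaks. At 37.4 kb upstream (chr14:99260724-99261564) GATA6 stood at percentiles 72.1 and 88.1 in nEnd and at 39.5 in DP A, and SOX2 at 1.17 in DP A1. At 33.9 kb upstream (chr14:99264314-99265159) GATA6 stood at 57.0 and 73.9 in nEnd, and SOX2 at 1.97 in NACL B9 and 2.52 in SOX2+ A1. These SOX2 peaks were among the weakest of their lists. No Klf5 region with SOX2 in at least 5 pluripotent libraries held GATA6 in both nEnd libraries.

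**Figure D2:**
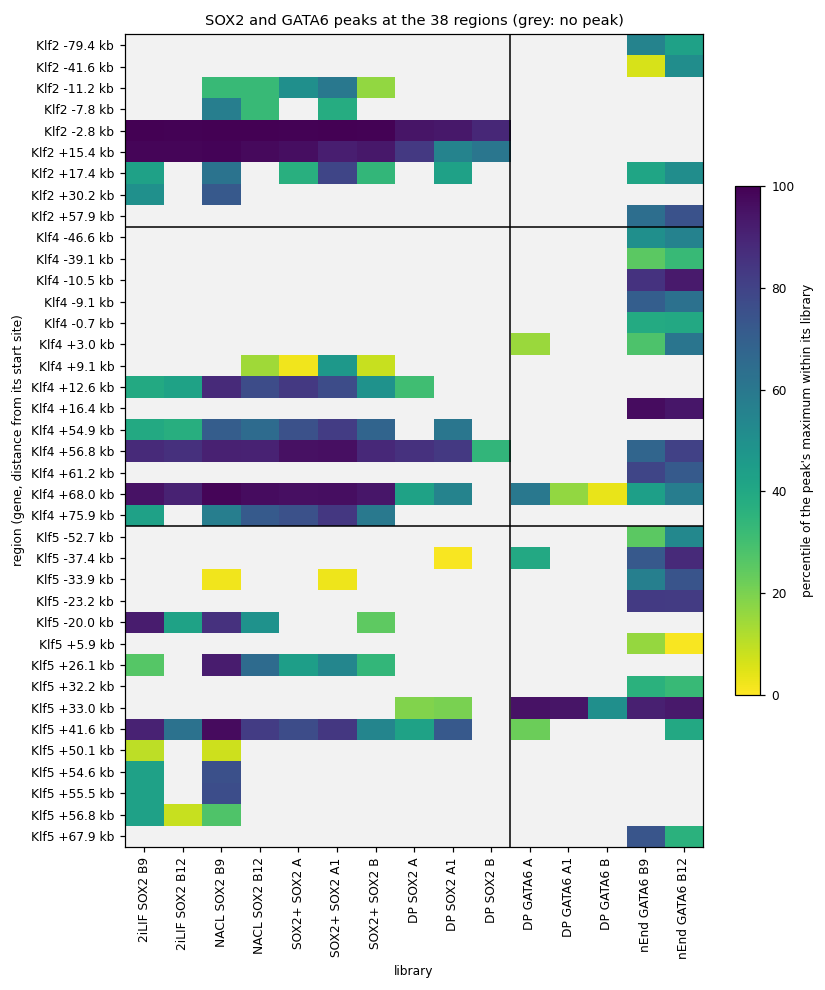
Percentile of the peak's highest signal within its library (colour, 0 to 100) at the 38 regions of the 3 loci (rows, by distance from the start site) in the 10 SOX2 and 5 GATA6 libraries (columns), with grey for no peak. The 2 rows filled in both DP SOX2 and DP GATA6 columns of at least 2 experiments are Klf4 68.0 kb and Klf5 33.0 kb downstream.

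Over whole loci, SOX2 occupancy in DP cells was compared with that in pluripotent cells. The share of the window's bases under peaks was turned into a percentile among the windows of all 21938 protein-coding genes in the same library, with ties sharing their middle rank. For Klf2 the SOX2 percentile was 96.3 ± 2.08 (SD, n = 3) in DP and 95.0 ± 2.18 (n = 7) in pluripotent libraries, for Klf4 97.4 ± 1.65 and 99.1 ± 0.656, and for Klf5 77.7 ± 29.4 and 94.2 ± 5.58. All 3 loci thus stood high among genes for SOX2 in both populations, Klf5 apart in DP B, which had no peak there and took the shared rank of peakless windows, 43.9.

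None of the 3 differences passed a two-sided exact permutation test over libraries with Benjamini-Hochberg adjustment over all genes. The difference, DP minus pluripotent, was 1.28 percentile points for Klf2 (exact p = 0.45), -1.64 for Klf4 (exact p = 0.0667) and -16.5 for Klf5 (exact p = 0.317), with adjusted p-values of 0.637, 0.184 and 0.515, and DP and pluripotent libraries overlapped at all 3. Over all genes, 18.5% had every DP library above every pluripotent one and 6.44% the reverse. Of the 4058 genes in the first group, 2771 had no SOX2 peak in any of the 10 libraries, since a peakless window ranks higher in a list with more peakless windows, and among the 19167 genes with a peak the shares were 9.73% and 5.80%. Without DP B the Klf5 difference was 0.39 and the Klf2 difference 0.17, without DP A the Klf4 difference was -0.74, and with equal numbers of peaks per library the Klf2 difference was -1.997. The Klf4 difference was -27.6 with a window of 40 kb and -20.4 with the stronger 50% of peaks (adjusted p = 0.189 and 0.180), and with those peaks the Klf5 difference was -33.7 (adjusted p = 0.125). The 40 kb window leaves out the distal Klf4 cluster, and DP A1 and B had no SOX2 peak in it. By the exact test on the 80 kb windows and all peaks, no gene of the 21938 had an adjusted p under 0.05, beside 7468 with a window of 40 kb and 8012 with the stronger 50% of peaks, none of them Klf2, Klf4 or Klf5. In the first of these settings 6264 had an unadjusted p under 0.05, and limma on normal scores of the percentiles called 1760. With 120 splits no exact p can go below 0.0167, so the adjusted values turn on how many genes share that smallest p. How many of the 7468 and 8012 genes had no SOX2 peak in any of the 10 libraries was not counted.

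Against SOX2+ cells alone, sorted from the same culture, Klf4 was the locus that separated. Its SOX2 percentile was 95.6, 98.9 and 97.8 in DP A, A1 and B and 99.1, 99.4 and 99.5 in SOX2+ A, A1 and B, a difference of -1.89 with exact p = 0.1, the smallest that 20 splits allow, and an adjusted p of 0.231. It was -38.6 with a window of 40 kb (adjusted p = 0.183), which leaves out the distal cluster and held no SOX2 peak in DP A1 and B. The difference was -20.5 with the stronger 50% of peaks (adjusted p = 0.328) and -0.99 without DP A. DP was lower within each of the 3 experiments. Of all genes, 15% had every DP library below every SOX2+ one and 28.2% above. Of the latter, 4669 genes had no SOX2 peak in any of the 6 libraries, and among genes with a peak the shares were 13.3% below and 18.0% above. The difference was 1.28 for Klf2 (exact p = 0.5), or 0.18 without DP B and 0.20 without SOX2+ A1, and -12.0 for Klf5 (exact p = 0.9), with overlapping libraries, and the Klf5 difference was 4.87 without DP B and -27.9 with the stronger 50% of peaks. With peaks counted per Mb the Klf5 difference was -6.07.

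**Figure D3:**
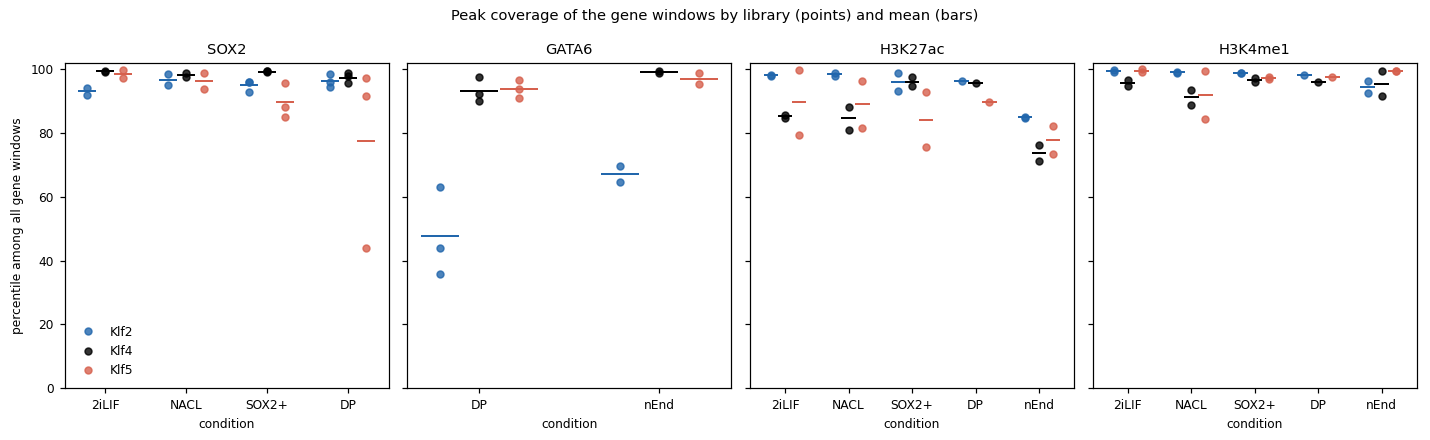
Percentile of each gene's window among all protein-coding gene windows for the share of bases under peaks, by antibody (panels) and condition, with 1 point a library and bars at the mean. Klf2 stands at 47.6 for GATA6 in DP and 67.1 in nEnd, below Klf4 and Klf5 in both, and its mean for H3K27ac is 98.3 in naive and 85.0 in nEnd libraries.

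For GATA6, Klf2 had the lowest mean of the 3 genes in both DP and nEnd. Its window stood at percentiles 63.0, 35.7 and 44.0 in DP A, A1 and B, with no peak in A1 or B, and at 64.5 and 69.6 in nEnd B9 and B12. Klf4 stood at 92.2, 90.2 and 97.6 in DP and at 99.6 and 98.8 in nEnd, and Klf5 at 94.0, 91.0 and 96.7 in DP and at 98.8 and 95.3 in nEnd. Every DP library lay below both nEnd libraries at Klf2 and Klf4, and the libraries overlapped at Klf5. DP minus nEnd was -19.5, -5.85 and -3.13, with exact p = 0.2, 0.2 and 0.4, where 0.2 is the smallest that 10 splits allow, and adjusted p-values of 0.366, 0.366 and 0.578. Leaving out 1 library gave -27.3 to -13.6 for Klf2, -8.00 to -4.26 for Klf4 and -4.88 to -1.38 for Klf5. Of all genes 24.2% were lower in every DP library and 30.4% higher, and among genes with a peak in these libraries 24.5% were lower and 24.7% higher. With equal numbers of peaks per library the difference was 0.21 for Klf2 and 53.6 for Klf5, and for Klf4 it was -43.3 with a window of 40 kb and -39.2 with the stronger 50% of peaks (adjusted p = 0.321 and 0.312). The 40 kb window leaves out the co-bound Klf4 region 68.0 kb downstream, and DP A1 and B had no GATA6 peak in it. All DP libraries came from clone B12 and 1 of the nEnd libraries from B9.

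**Figure D4:**
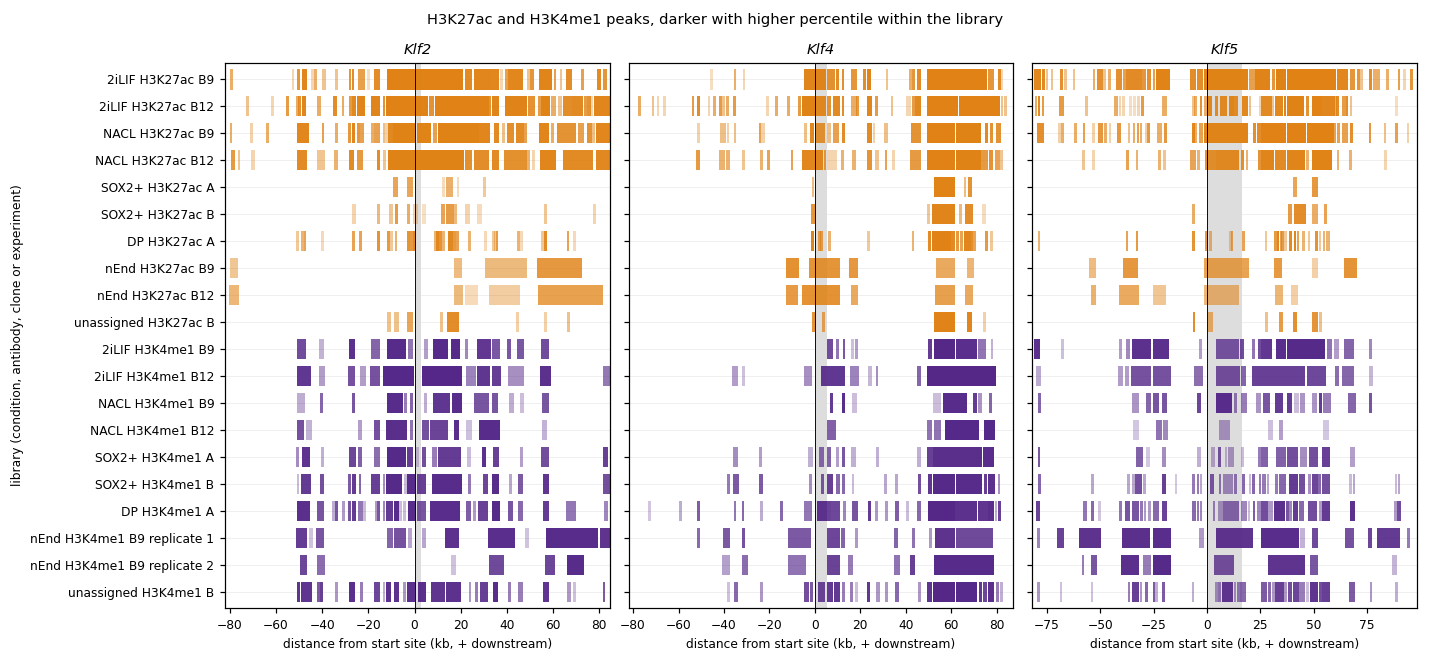
H3K27ac (orange) and H3K4me1 (purple) peaks of the 20 histone libraries by distance from the start site of each gene in kb, darker with a higher percentile within the library, gene body in grey. The nEnd libraries lack H3K27ac over the 2 leading SOX2 regions of Klf2 and show a block upstream of Klf4 that covers the GATA6 region at 10.5 kb.

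H3K27ac at the Klf loci was compared between nEnd and naive cells, which asks how far the loci remained marked in endoderm. The mark covered 54.4%, 65.0%, 59.0% and 62.9% of the Klf2 window in 2iLIF B9 and B12 and NACL B9 and B12, and 27.1% and 33.99% in nEnd B9 and B12. As percentiles among genes these were 98.0, 98.4, 97.9 and 98.9 against 84.7 and 85.2. For Klf4 the percentiles were 84.8, 85.9, 81.1 and 88.3 against 76.4 and 71.3, and for Klf5 99.8, 79.5, 96.5 and 81.6 against 82.2 and 73.4. Both nEnd libraries lay below all naive ones at Klf2 and Klf4, and not at Klf5 over both clones. Within clone, nEnd was lower at Klf5 too, at 82.2 against 99.8 and 96.5 in B9 and at 73.4 against 79.5 and 81.6 in B12, and with labels permuted within clone all 3 loci had exact p = 0.222, the smallest possible.

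The differences, nEnd minus naive, were -13.3 for Klf2, -11.2 for Klf4 and -11.5 for Klf5, with exact p = 0.133, 0.133 and 0.4 and adjusted p-values of 0.207, 0.207 and 0.496. With 15 splits no gene can go below 0.133, and 29.6% of all genes had both nEnd libraries below all naive ones and 35.0% above. A fit with limma on normal scores, which borrows the spread across genes, gave adjusted p-values of 0.000509, 0.0459 and 0.204. By that fit 11031 of the 21938 genes had an adjusted p under 0.05. Klf4 turned to 4.79 with a window of 40 kb and to 11.3 with peaks counted in place of covered bases, by which Klf2 and Klf5 differed by -3.45 and -1.24 (adjusted p = 0.957 and 1). The stronger 50% of peaks gave -24.6 for Klf2, -2.67 for Klf4 and -21.5 for Klf5. Leaving out 1 library gave -13.6 to -13.1 for Klf2, -13.7 to -8.62 for Klf4 and -15.9 to -7.14 for Klf5.

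Within the windows the nEnd libraries differed from naive ones at named regions. The Klf2 regions 2.8 kb upstream and 15.4 kb downstream held H3K27ac in all 4 naive, both SOX2+ and the DP library and in neither nEnd library. Of the 1100 regions with SOX2 in all 10 libraries, 53.5% held none in nEnd. The region 17.4 kb downstream, where GATA6 was bound in nEnd, held H3K27ac in both nEnd and all 4 naive libraries. The third of the shared regions, Klf4 56.8 kb downstream, held it in all 9 assigned H3K27ac libraries, as did the co-bound Klf4 region. At the co-bound Klf5 region H3K27ac was found in all 4 naive, the DP and both nEnd libraries, but in neither SOX2+ library, and H3K4me1 in 3 of 4 naive, both SOX2+, the DP and both nEnd libraries.

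Enhancers, defined as H3K27ac in both libraries of a condition overlapping H3K4me1 in both, numbered 10 in 2iLIF, 5 in NACL and 3 in nEnd at Klf2, 5, 4 and 4 at Klf4, and 15, 6 and 4 at Klf5. A single enhancer of 45.4 kb in 2iLIF and 44.3 kb in NACL contained the Klf2 gene and 6 transcription factor regions, all with SOX2. This span does not place both marks at each of those regions, and H3K4me1 lay over the one 2.8 kb upstream in 2 of 2 2iLIF and 0 of 2 NACL libraries and over the one 15.4 kb downstream in 1 of 2 of each. In nEnd the Klf2 enhancers lay downstream only, the first beginning 17.1 kb from the start site. Of the 11 nEnd enhancers of the 3 loci, 9 overlapped an enhancer of both naive media, beside 40.3% of the 7636 nEnd enhancers in the genome, and 2 overlapped none, beside 42.2%. Of these 2, 1 at Klf4 reached from 7.01 to 12.6 kb upstream and 1 at Klf5 from 51.8 to 55.0 kb upstream.

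The block upstream of Klf4 held 2 GATA6 regions of nEnd, 9.1 kb (chr4:55541140-55542151) and 10.5 kb (chr4:55542216-55543414) from the start site, described here after their values were seen. Both held H3K27ac and H3K4me1 in both nEnd libraries, H3K4me1 in no other library, and H3K27ac in 1 of 4 naive libraries at the farther and 0 at the nearer. Over the 3 loci, 13 of the 22 nEnd GATA6 regions held both marks in both nEnd libraries, beside 38.8% of 19725 in the genome, and 3 of the 22 held both and also had H3K4me1 in no naive library, beside 15.5% of the 19725. The third lay 52.7 kb upstream of Klf5, in an intron of Pibf1, a centrosomal protein gene, and was likewise named after its values were seen. As nEnd H3K4me1 came from clone B9 alone, clone and condition cannot be told apart where B12 naive libraries are set against them.

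For H3K4me1 only Klf2 separated nEnd from naive libraries. At Klf2 its percentile was 99.8, 99.1, 98.9 and 99.2 in 2iLIF B9 and B12 and NACL B9 and B12 and 96.3 and 92.6 in the nEnd libraries, a difference of -4.79 without overlap (exact p = 0.133, adjusted p = 0.334). At Klf4 and Klf5 the differences were 1.97 and 3.79 with overlapping libraries (exact p = 0.667 for both). By single libraries, the Klf4 difference was -1.98 without 1 nEnd library, replicate 2, and the Klf5 difference was 0.029 without NACL B12. For Klf2, leaving out 1 library gave -6.65 to -2.94. Of all genes, 19.8% were lower in both nEnd libraries and 20.1% higher. By limma on normal scores the Klf2 difference had an adjusted p of 0.0183, and 5257 of the 21938 genes had one under 0.05.

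In SOX2+ cells of KOSR culture against naive cells, Klf4 H3K27ac stood at percentiles 94.7 and 97.5 against 81.1 to 88.3, a difference of 11.1 without overlap (exact p = 0.133, adjusted p = 0.248, limma adjusted p = 0.00967), as for 31.3% of all genes, while 22.4% were lower. By limma 7182 of the 21938 genes had an adjusted p under 0.05. The SOX2+ lists held 13514 and 14722 peaks and the naive ones 210904 to 401853, and with equal numbers of peaks the difference was 5.07 (adjusted p = 0.456). With a window of 40 kb, which leaves out the distal cluster, it was -12.6. The strongest Klf4 H3K27ac peak lay in that cluster in both SOX2+ libraries and also in all 4 naive libraries and the DP library, at percentiles within the library of 98.0 and 96.6 in SOX2+ and 99.5 to 99.6 in naive cells. Klf2 and Klf5 differed by -2.22 and -5.10 with overlapping libraries, and without SOX2+ A by 0.57 and 3.65. For H3K4me1 the differences were -0.40, 3.22 and 1.57 for Klf2, Klf4 and Klf5, all with overlap, beside 17.4% of genes higher and 24.1% lower. The Klf4 value ran from 1.68 to 4.27 when 1 library was left out. The single DP libraries, given with no test, stood at 96.4, 95.7 and 89.7 for H3K27ac and at 98.3, 96.1 and 97.7 for H3K4me1.

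In the list of the other 14 KLF family members, the median SOX2 percentile was 49.8 in pluripotent and 55.9 in DP libraries, below the means of Klf2, Klf4 and Klf5. Klf9, at 99.8 in both, was above Klf2, Klf4 and Klf5 in both. Klf6, at 96.6 and 98.3, was above Klf2 and Klf5 in both and above Klf4 in DP libraries. In DP against pluripotent cells, 2 members were higher without overlap and 0 lower, beside 18.5% and 6.44% of all genes, with a median difference of 0.97 beside 2.19 over all genes. Of these 2, Klf14 had no SOX2 peak in any DP library and ranked higher only by the shared rank of peakless windows. Klf17 differed most, at 65.3 in DP, with peaks in 2 of 3 libraries, and 18.0 in pluripotent libraries, where it had none. For H3K27ac in nEnd against naive cells 4 were higher and 4 lower, beside 35.0% and 29.6% of all genes, and Klf15 differed most, at 93.8 in naive and 37.3 in nEnd.

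In the naive pluripotency list, H3K27ac was lower in nEnd for most genes, with 11 of 14 genes lower in both nEnd libraries and 1 higher, beside 29.6% and 35.0% of all genes, and a median difference of -27.5 beside 1.09 over all genes. Nr5a2, an orphan nuclear receptor, stood at 96.2 in naive and 19.3 in nEnd, Sox2 at 79.1 and 12.5, and Esrrb, another nuclear receptor of the network, at 64.5 and 12.5. For SOX2 in DP against pluripotent cells 4 of 14 were lower and 0 higher, beside 6.44% and 18.5% of all genes. Prdm14, which represses differentiation genes, had no SOX2 peak in any DP library, at 36.3 against 98.5. For GATA6 in DP against nEnd, 6 of 14 were higher and 0 lower, beside 30.4% and 24.2% of all genes, and 1 of the 6, Gbx2, had no GATA6 peak in any of these libraries. Another, Dppa3, had a GATA6 peak in 1 DP library alone and took the shared rank of peakless windows in the others. Sox2 stood at 85.9 against 27.9, while all 3 Klf means were lower in DP, except that with equal numbers of peaks those of Klf2 and Klf5 were higher. The primitive endoderm list checked the cultures: 8 of 10 genes were higher for H3K27ac in both nEnd libraries and 0 lower, beside 35.0% and 29.6% of all genes, Col4a1, a basement membrane collagen, standing at 14.8 in naive and 99.8 in nEnd. For GATA6 in DP against nEnd, 6 of 10 were lower and 1 higher, beside 24.2% and 30.4%.

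The pattern of percentiles over the 33 assigned libraries was correlated between each Klf gene and all genes on other chromosomes, as a description, since libraries of 1 antibody move together. Klf2 was most like Pla2g10, Nmur1 and Sat2, with Pearson r of 0.94, 0.94 and 0.93. Klf4 was most like Ankrd55, Sall4 and Nod1, at 0.82, 0.79 and 0.79, of which Sall4 is on the naive pluripotency list. Klf5 was most like Epha4, Arhgap30 and Tstd1, at 0.74, 0.74 and 0.73. Among themselves the Klf genes were less alike, with r of 0.02 for Klf2 and Klf4, -0.07 for Klf2 and Klf5 and 0.25 for Klf4 and Klf5. The only other protein-coding start sites within the windows were those of Ap1m1, 79.0 kb upstream of Klf2, and of Gm10282, 13.8 kb upstream of it.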

How the data were processed

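CUT&RUN libraries of H3K27ac, H3K4me1, SOX2 and GATA6 were analysed as deposited peak lists. By the submitters' processing notes the authors used cutadapt 1.18, Bowtie2 2.3.4.1, SAMtools 1.9, Picard 2.9.1, bedtools 2.27.1, deepTools 3.2.0 and SEACR on GRCm38 (mm10), and called peaks in each library against the IgG control of its experiment and condition. The 18 IgG samples were not used further. The deposited lists have 6 columns, with position, total signal and highest signal, in whole-number coverage on each library's own scale. They are named for the relaxed mode of SEACR for histone marks and the stringent mode for factors, and the methods state the reverse. Read depth is unknown, so the number of peaks limits what a library can show.

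The medium of 1 NACL SOX2 library came from its title, and the label of DP GATA6 A ends in sub02, which is not explained. Coordinates are 1-based. Gene positions were those of GENCODE M21, and bases were read from RefSeq's GRCm38. Overlap meant at least 1 bp. Percentiles of covered bases were compared with exact permutation tests, two-sided, p being 2 times the smaller tail, adjusted over 21938 genes with a threshold of 0.05. Alternatives were a 40 kb window, peaks per Mb, the stronger 50% of peaks, limma, the same number of top peaks in each library (SOX2 1378, GATA6 1391, H3K27ac 13514 and H3K4me1 18627) and leaving out each library. Ranking only genes with a peak was chosen after seeing the data. Code was checked on simulated data. Python 3.11.15, R 4.3.3 and limma 3.58.1 were used.

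The genes, lists and regions were chosen with earlier results of these data known. Named regions held SOX2 in at least 5 pluripotent libraries, either factor in at least 2 DP libraries, or GATA6 in both nEnd libraries, and above 6 a locus those with the most libraries. Ties for the printed sequences went to the region with the highest median percentile. From each list at most 4 genes with the largest difference in a comparison were named, except Klf6, Klf9, Klf14 and Gbx2, which were named after their values were seen.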

Additional observations from a re-analysis of the deposited data

Results flagged for a closer look

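Among the 18 groups of libraries tested for an outlying library, 3 held one, where chance gives about 1 in 20. NACL SOX2 B9 covered 2.69% of the Klf2 window, above the other 6 pluripotent libraries, and its percentile at Klf4 was 97.7, below them. NACL H3K4me1 B12 stood at percentile 84.5 at Klf5, below the other 3 naive libraries.

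The 2 histone libraries of experiment B whose labels name different sorted populations also had peaks at the loci. The H3K27ac library held 8 peaks at Klf2, 5 at Klf4 and 7 at Klf5, at percentiles 95.9, 94.5 and 90.2 among gene windows. The H3K4me1 library held 26, 24 and 32, at 98.2, 97.0 and 95.9.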

How the results depend on the processing

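Read depth is unknown, and the libraries differ in peak number. With equal peak numbers the difference was -1.997 (SOX2, DP against pluripotent) and -0.80 (against SOX2+) for Klf2, 0.21 and 53.6 for Klf2 and Klf5 GATA6, and 0.43 and -5.46 for Klf2 and Klf5 H3K4me1 in SOX2+ against naive. With a 40 kb window Klf4 H3K27ac differed by 4.79 in nEnd and -12.6 in SOX2+ against naive. With peaks per Mb it was 11.3 for Klf4 H3K27ac in nEnd, -0.47 for Klf5 H3K4me1 in nEnd and 20.5 for Klf2 H3K27ac in SOX2+. With the stronger 50% of peaks it was 0.12 for Klf5 H3K27ac and 0.27 for Klf2 H3K4me1 in SOX2+, and by limma -0.46 for Klf5 H3K4me1 in SOX2+. The cause was not tested.

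Leaving out 1 library gave -26.4 to 0.39 for Klf5 SOX2 in DP against pluripotent and -21.9 to 4.87 against SOX2+ (sign turned without DP B), -1.98 to 5.93 for Klf4 H3K4me1 in nEnd (without nEnd replicate 2), -5.00 to 0.57 for Klf2 and -13.9 to 3.65 for Klf5 H3K27ac in SOX2+ (without SOX2+ A), and -2.19 to 2.96 for Klf5 H3K4me1 in SOX2+ (without NACL B12).

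Genes with an adjusted p under 0.05 numbered 0 by the exact test, 7468 with a 40 kb window and 8012 with the stronger 50% of peaks for SOX2 in DP against pluripotent. By limma they numbered 1760 there, 1338 against SOX2+, 3994 for GATA6, 11031 for H3K27ac and 5257 for H3K4me1 in nEnd, and 7182 and 518 in SOX2+. The exact-test counts turn on how many genes share the smallest p that 120 splits allow, 0.0167. Regions at the loci numbered 38, against 21 with the stronger 50%, 6 with equal peak numbers and 63 from any 1 library. Enhancers in NACL numbered 15, against 33 from either library and 6 with the stronger 50%, and in nEnd 11 against 5. Ranking only genes with a peak, chosen after seeing the data, kept every direction.

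With the replicate block by experiment, whose same-numbered libraries correlated at 0.03 to 0.06, Klf2, Klf4 and Klf5 SOX2 differed by 1.28, -1.89 and -12.0 (exact p = 0.5, 0.25 and 1) with 0 genes called. With clone as the block, the exact p for H3K27ac in nEnd was 0.222 at each locus, the smallest possible, with 0 genes called.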

Other observations

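SOX2 was found in both naive libraries of clone B9 and in no other SOX2 library at 1302 regions of the genome, and in both naive libraries of clone B12 alone at 6. The 2 counts are not a like comparison of the clones, since all 6 sorted SOX2 libraries came from B12 and the B9 lists were longer, with 13177 and 29623 peaks in 2iLIF and NACL against 8203 and 17111. Of the first, 1 lay at Klf2, 30.2 kb downstream, and 3 at Klf5, 50.1, 54.6 and 55.5 kb downstream. The Klf2 peak stood at percentiles 49.8 and 71.9 in 2iLIF and NACL B9. The Klf5 peaks stood at 10.01 and 7.72, 42.8 and 75.5, and 42.8 and 76.5. These regions were noticed after their values were seen.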
